A study of Mus musculus with 12 samples.

Results

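The 9 genes described here belong to the bone morphogenetic protein (BMP) pathway: the ligand gene Bmp4, the type I receptor gene Bmpr1a, the inhibitor genes Smad6, Smad7 and Bambi, and the inhibitor of DNA binding genes Id1, Id2, Id3 and Id4. They were chosen by symbol from the 24881 gene symbols of the deposited table, and all 9 were present. All 9 also passed the filter on low values that left 12572 genes for testing. RNA was sequenced from R1 mouse ESCs with FUCCI reporters, in which an orange and a green fluorescent protein tell G1 cells from later ones, and G1 cells alone were sorted. The question was how loss of P53 changes the transcriptome of ESCs in either culture. The 4 groups were WT ESCs in serum, P53-/- ESCs in serum, WT ESCs in 2i and P53-/- ESCs in 2i, with 2 libraries each, and every group shares the cell line, the reporters and the G1 sort. Serum is the classical ESC medium, and 2i is a serum-free medium with inhibitors of the kinases MEK and GSK3. Both media hold the cytokine LIF. The P53-/- ESCs are single-cell clones made with CRISPR/Cas9, of which the study sequenced 2. No column is tied to a clone, so that differences between clones and differences between libraries cannot be told apart. No source used here says whether the WT libraries of a group come from separate cultures, so the p values measure the spread between these libraries, which may be technical.

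BMP ligands bind a complex of type I and type II receptor kinases, which phosphorylates SMAD1, SMAD5 and SMAD9, and these enter the nucleus with SMAD4. The Id genes are the classical targets of this signal. Their proteins lack a DNA-binding region and hold the E proteins, a class of helix-loop-helix transcription factors, away from DNA. In serum ESCs, BMP from serum or from the cells themselves together with LIF is known to keep cells undifferentiated, in part through Id genes, whereas 2i medium needs no added BMP. SMAD6, SMAD7 and the pseudoreceptor BAMBI act as feedback inhibitors of the pathway.

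The levels below are FPKM (fragments per kilobase of transcript, relative to all mapped fragments), as scaled by the authors. Differences are log2 fold changes of FPKM + 0.1, with a limma test across all 12572 genes. The constant added makes the fold change of a low gene smaller than the ratio of its FPKM values. The reduction is large where a value is near or under 0.1. Calls required more than a 1.5-fold change together with an adjusted p below 0.1. With 2 libraries against 2, a two-sided exact permutation test of a single gene cannot give a p below 0.33, so that each call rests on the spread that limma shares across genes. The number of fragments was estimated from the smallest steps of the FPKM values at 5200000 to 13300000 per library. At that depth the lowest value among the 9 genes, that of Smad6 in the second WT serum library, stands for about 14 fragments, and all Id3 values stand for at least 175. Trp53 itself, the targeted gene, was at 77.6 and 75.1 FPKM in WT serum and at 16.8 and 3.68 in P53-/- serum. In 2i it was at 26.8 and 33.7 in WT and at 7.25 and 1.88 in the P53-/- libraries. Every P53-/- library lay below every WT library of its culture, but the P53-/- libraries of a culture lay far apart. The log2 fold change was -2.98 in 2i (SE 0.74, limma adjusted p = 0.0547). In serum it was -3.26 (SE 0.74, limma adjusted p = 0.150) and was not called. The ESC marker genes Pou5f1, Sox2, Nanog, Utf1, Dppa5a, Esrrb and Zfp42 all passed the filter and summed to between 3037 and 4188 FPKM in the 8 libraries. Since these are bulk samples, fewer cells that express a gene and less RNA per cell cannot be told apart.

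Promoter windows from RefSeq (GRCm38.p6), each with the 250 bases before a gene's start and the 50 after it, were matched for 6 of the 9 genes: Id2, Id3, Id4, Smad6, Bmp4 and Bmpr1a. The ligand gene Bmp4 and the Id gene Id4 are shown because culture moved them in opposite directions in both genotypes, and because the 250 bases before their starts hold no exon of GENCODE M21. The Id4 stretch is chr13:48260866-48261115 on the plus strand, and the Bmp4 stretch is chr14:46390670-46390919 on the minus strand. Capitals mark the match to GGCGCC, a GC-rich element bound by SMAD1 and SMAD5, which was searched on both strands.
Id4: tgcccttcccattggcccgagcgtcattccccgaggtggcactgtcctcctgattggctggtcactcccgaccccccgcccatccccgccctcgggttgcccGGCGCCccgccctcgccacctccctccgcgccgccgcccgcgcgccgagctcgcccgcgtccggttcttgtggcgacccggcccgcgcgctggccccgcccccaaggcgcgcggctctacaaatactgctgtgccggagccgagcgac
Bmp4: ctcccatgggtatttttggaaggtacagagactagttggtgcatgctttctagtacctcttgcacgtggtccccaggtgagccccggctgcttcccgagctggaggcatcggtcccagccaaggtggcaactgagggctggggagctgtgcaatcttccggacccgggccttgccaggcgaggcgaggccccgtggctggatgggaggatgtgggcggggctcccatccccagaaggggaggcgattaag
GGCGCC was found in the windows of 3 of the 6 genes (Id2, Id4 and Bmpr1a), against 11.9% of the 32851 windows of the genome. The 250 bases before the start were 62.8%, 75.6% and 78.8% G or C in these 3 genes. They were 62.8% to 66.8% in the other 3. The share over all windows was not matched for this content, so no enrichment is shown. Of the 250 bases, 161 in Id2 and 141 in Bmpr1a lie in exons of GENCODE M21. The SMAD-binding element CAGAC, or GTCTG on the other strand, was found in 1 of the 6 windows, that of Id3, which held 2 matches, against 49.6% of all windows. These matches are letters in a window, and no binding was measured at them here. The 250 bases before the RefSeq start of Id3 lie within the first exon of its GENCODE transcript and are not printed.

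In WT ESCs, all 9 genes were called between 2i and serum, with 4 higher and 5 lower in 2i. Without the first WT 2i library 6 were called, and likewise without the second WT serum library. The ligand gene Bmp4 and the target gene Id1 fell the most, by 14.2-fold and 12.5-fold, while the target genes Id3 and Id4 rose by 7.50-fold and 5.81-fold. The Id genes therefore moved in both directions between the cultures. As background, 55.7% of all genes tested were called in this comparison, 27.2% higher and 28.6% lower in 2i, so that a call by itself does not set these genes apart.

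**Figure D1:**
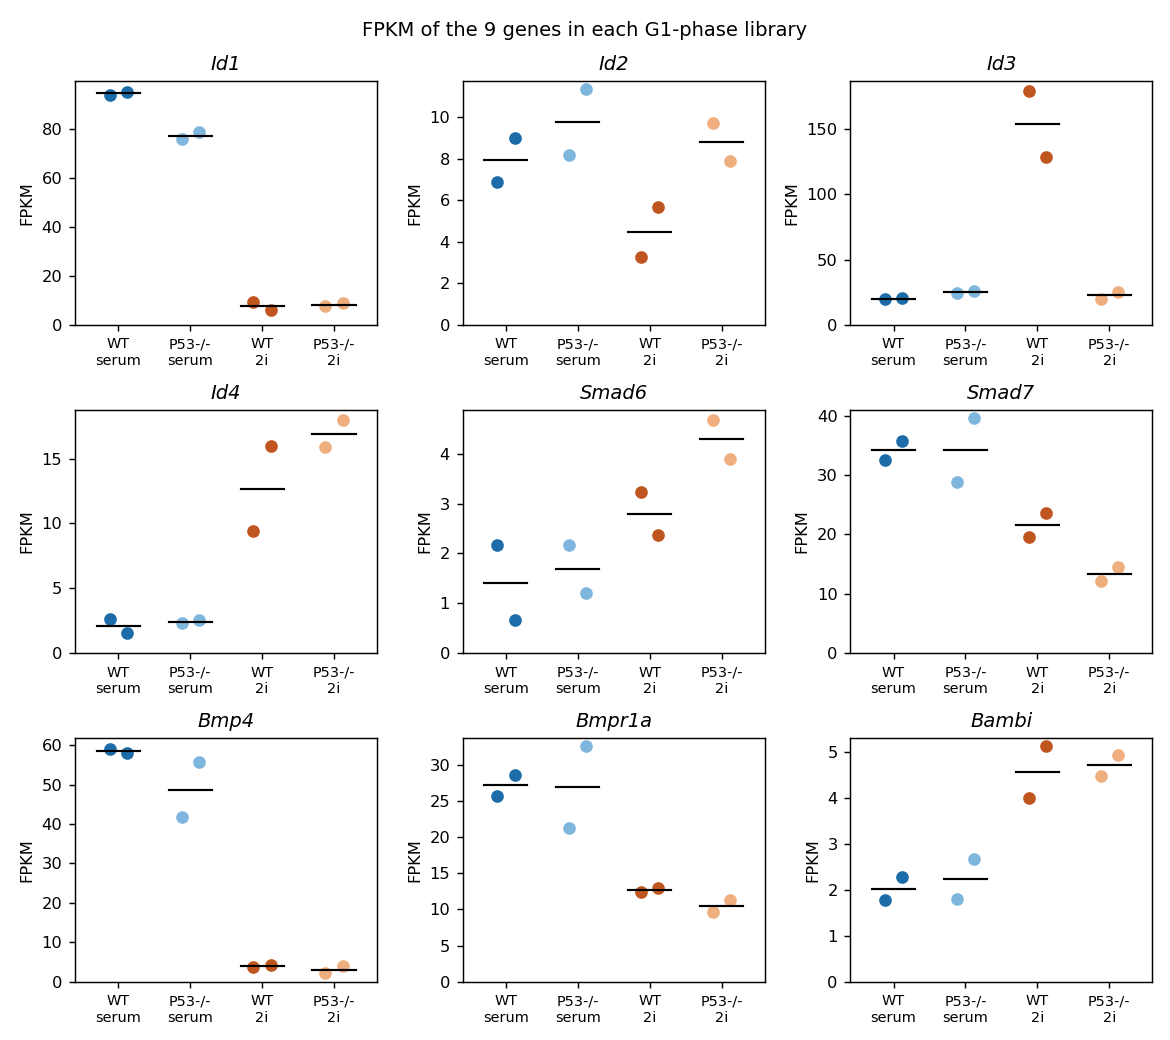
FPKM of the 9 genes (y axes, linear from 0) in the 8 libraries, by group (x axes). Points are libraries and the black line is the mean of the 2. Id1 and Bmp4 sit high in all serum libraries and low in all 2i libraries, whereas Id3 sits at 179 and 129 in the WT 2i libraries and at or under 25.9 in the other 6.

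Bmp4, the only ligand gene among the 9, was at 59.0 and 58.1 FPKM in WT serum and at 3.72 and 4.36 in WT 2i. Without P53 it was at 41.8 and 55.7 in serum and at 2.26 and 3.92 in 2i. All 4 serum libraries thus lay far above all 4 2i libraries. The log2 fold change of 2i against serum was -3.83 in WT (SE 0.25, limma adjusted p = 3.36e-05) and -3.97 in P53-/- ESCs (SE 0.25, limma adjusted p = 2.59e-05). The 2i values rest on about 44 to 62 fragments per library.

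Of the 16 BMP ligand genes listed, 4 passed the filter, namely Bmp4, Bmp7, Bmp8a and Gdf3. Bmp4 was the one called lower in 2i, and the other 3 were called higher in both genotypes. Bmp8a was low, at 0.549 and 0.725 FPKM in WT serum and at 2.19 and 1.06 in WT 2i. Its WT call was marginal (log2 fold change 1.16, SE 0.51, limma adjusted p = 0.0851). Bmp7, a ligand of the same receptors, was at 0.706 and 0.681 FPKM in WT serum and at 3.46 and 4.01 in WT 2i. Its log2 fold change was 2.27 in WT (SE 0.25, limma adjusted p = 0.000198) and 2.95 in P53-/- ESCs. Gdf3, a divergent member of the family, had the highest level of the ligand genes in 2i, where it ranged from 41.8 to 63.5 FPKM, and rose by 0.63 on the log2 scale in WT. The 4 ligand genes together with those under the filter summed to 93.9 and 94.5 FPKM in WT serum and to 59.0 and 67.3 in WT 2i. Of these sums, Gdf3 made up 33.9 and 33.4 in WT serum, and most in WT 2i, at 48.2 and 56.2.

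Bmpr1a encodes the type I receptor ALK3. It was at 25.7 and 28.7 FPKM in WT serum, 12.4 and 13.0 in WT 2i, 21.3 and 32.6 in P53-/- serum, and 9.64 and 11.3 in P53-/- 2i. Serum and 2i libraries did not overlap in either genotype. The gene fell by 1.09 on the log2 scale in WT 2i (SE 0.20, limma adjusted p = 0.00244) and by 1.33 in P53-/- 2i (SE 0.20, limma adjusted p = 0.000848). Of 10 receptor and co-receptor genes tested, 5 were called lower and 1 higher in WT 2i, against 28.6% and 27.2% of all genes. Their median log2 fold change was -0.57, against -0.02 over all genes. The type II receptor genes were among them, with Acvr2b at -2.23 and Bmpr2 at -1.87, and so was the co-receptor gene Hfe2 at -1.52. In P53-/- ESCs, 6 were called lower and 3 higher, against 30.1% and 28% of all genes.

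Between receptor and nucleus, 3 of the 4 SMAD genes that carry the signal passed the filter. Smad5 was called lower in WT 2i at a log2 fold change of -1.63, and Smad4, the common partner, at -1.08. Both were also lower in P53-/- 2i, at -1.46 and -1.04. Smad1 was not called in either genotype and lay between 5.10 and 8.41 FPKM in the 8 libraries.

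Among the targets, Id1 was at 94.3 and 95.4 FPKM in WT serum and at 9.27 and 6.02 in WT 2i. Without P53 it was at 76.1 and 78.9 in serum and at 7.64 and 8.85 in 2i. No serum library came near a 2i library. The log2 fold change was -3.65 in WT (SE 0.20, limma adjusted p = 2.00e-05) and -3.22 in P53-/- ESCs (SE 0.20, limma adjusted p = 2.24e-05).

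Id4 moved the other way. It was at 2.67 and 1.53 FPKM in WT serum, 9.42 and 16.0 in WT 2i, 2.30 and 2.58 in P53-/- serum, and 15.9 and 17.96 in P53-/- 2i. All 2i libraries exceeded all serum libraries, although the WT 2i pair was spread. Its log2 fold change was 2.54 in WT (SE 0.31, limma adjusted p = 0.000332) and 2.74 in P53-/- ESCs (SE 0.31, limma adjusted p = 0.000202).

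Id2 showed the smallest difference of the 4 Id genes. It was at 6.85 and 8.99 FPKM in WT serum and at 3.28 and 5.65 in WT 2i, and fell by 0.85 on the log2 scale (SE 0.29, limma adjusted p = 0.0343). In P53-/- ESCs the values were 8.17 and 11.3 in serum and 9.70 and 7.89 in 2i, and the groups overlapped. The log2 fold change there was -0.13, with a 95% interval from -0.80 to 0.53. The WT call was lost when the first WT 2i library was left out (-0.47, limma adjusted p = 0.197) and when the second WT serum library was left out (-0.66, limma adjusted p = 0.213).

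Id3 rose in 2i in WT and was not called in P53-/- ESCs. It was at 19.9 and 20.4 FPKM in WT serum and at 179 and 129 in WT 2i, and rose by 2.91 on the log2 scale (SE 0.18, limma adjusted p = 2.92e-05). In P53-/- ESCs it was at 24.5 and 25.9 in serum and at 19.8 and 25.3 in 2i, with overlapping groups. The log2 fold change was -0.17, with a 95% interval from -0.59 to 0.25, which lies far below the WT value. The difference between these culture effects is the interaction given further on.

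**Figure D2:**
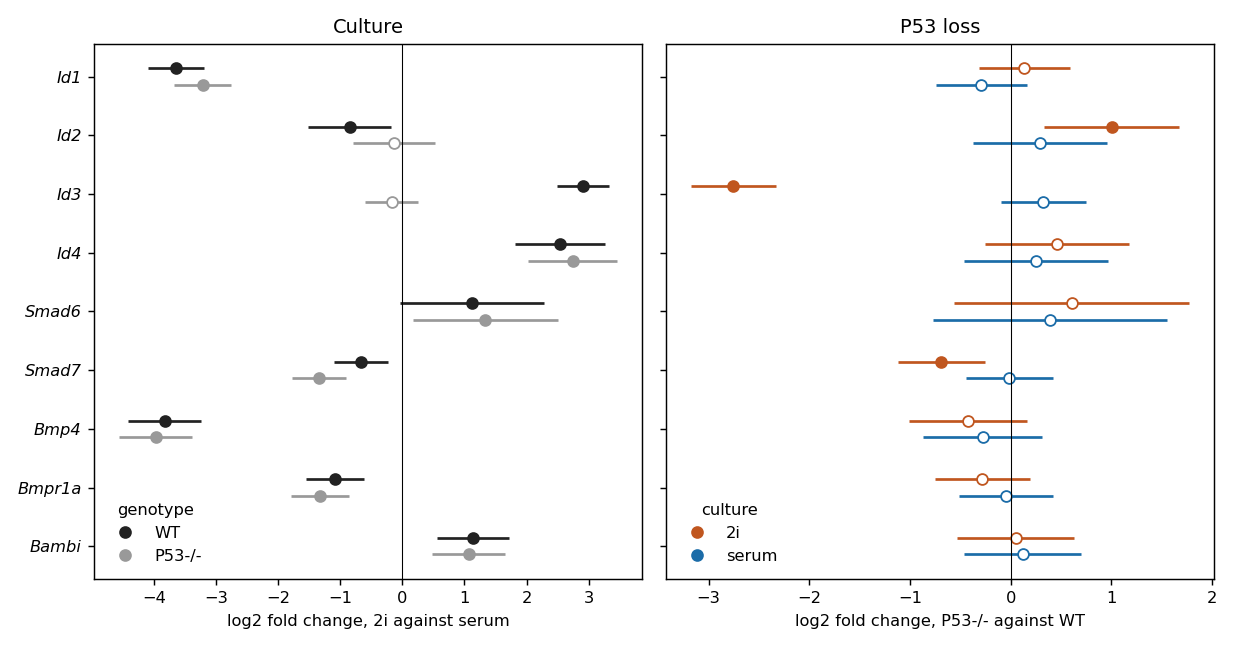
Log2 fold changes (x axes) of the 9 genes (rows), for 2i against serum in each genotype on the left and for P53-/- against WT in each culture on the right. Points are limma estimates, lines are 95% intervals and filled points were called. Id3 departs from 0 at 2.91 in WT on the left and at -2.76 in 2i on the right.

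Of the inhibitors, Smad7 moved down and Bambi up in 2i. Smad7, whose protein blocks both BMP and activin signals, was at 32.5 and 35.8 FPKM in WT serum, 19.6 and 23.6 in WT 2i, 28.8 and 39.7 in P53-/- serum, and 12.1 and 14.6 in P53-/- 2i. The serum libraries all exceeded the 2i libraries. It fell by 0.67 on the log2 scale in WT (SE 0.19, limma adjusted p = 0.0162) and by 1.34 in P53-/- ESCs (SE 0.19, limma adjusted p = 0.000557). In WT the fall was small enough that it dropped under the 1.5-fold limit after quantile normalization (-0.48), and without the first WT 2i library (-0.53). It was also not called without the second WT serum library (-0.60, limma adjusted p = 0.106).

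Bambi, which encodes a receptor without a kinase domain, was at 1.78 and 2.28 FPKM in WT serum, 4.01 and 5.14 in WT 2i, 1.81 and 2.66 in P53-/- serum, and 4.48 and 4.95 in P53-/- 2i. All 2i libraries lay above all serum libraries. Its log2 fold change was 1.13 in WT (SE 0.25, limma adjusted p = 0.00555) and 1.07 in P53-/- ESCs (SE 0.25, limma adjusted p = 0.00701).

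Smad6, the inhibitor most selective for the BMP branch, was the lowest of the 9 genes in 3 of the 4 groups by mean level. It was at 2.17 and 0.663 FPKM in WT serum, 3.23 and 2.37 in WT 2i, 2.17 and 1.21 in P53-/- serum, and 4.69 and 3.89 in P53-/- 2i. The log2 fold change of 1.12 in WT (SE 0.50, limma adjusted p = 0.0874) was 0.34 without the second WT serum library. This call was also lost without either WT 2i library (limma adjusted p = 0.283 and 0.127), with no filter (0.135), after quantile normalization (0.132), with the compared groups only (0.160) and without trend (0.118). In P53-/- ESCs it was 1.34 (SE 0.50, limma adjusted p = 0.0480), and this call was lost without either 2i library (limma adjusted p = 0.178 and 0.111) and without the second serum library (0.94, limma adjusted p = 0.248).

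In P53-/- ESCs, 7 of the 9 genes were thus called between 2i and serum, 3 higher and 4 lower, against 58.2% of all genes (28% higher and 30.1% lower). The 2 that were not called are Id2 and Id3.

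**Figure D3:**
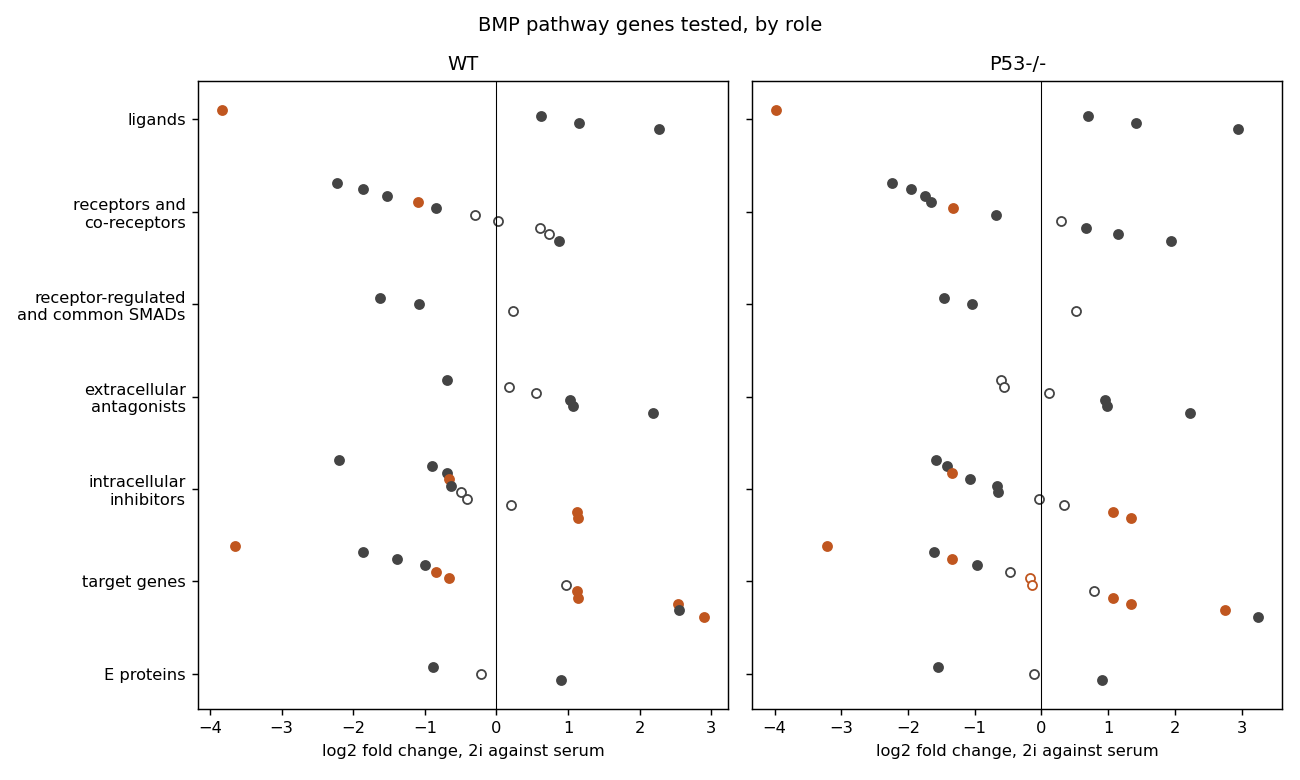
Log2 fold changes of 2i against serum (x axes) for every tested gene of 7 role lists (rows), in WT on the left and in P53-/- ESCs on the right. Each point is a gene, filled where called, and orange marks the 9 genes, some of which stand in 2 rows. In WT, 5 of 10 receptor genes were called lower and Bmp4 lies alone to the left of the ligands at -3.83.

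Among the other genes of the pathway, 6 extracellular antagonist or modulator genes were tested, of which 3 were called higher in WT 2i and 1 lower. Of these, Fst, which encodes the activin and BMP trap follistatin, rose by 2.19 on the log2 scale. Of 10 intracellular inhibitor genes, the 3 above included, 2 were called higher and 5 lower in WT 2i, and Skil, a SMAD corepressor gene, fell by 2.19. Of 12 target genes tested, the 4 Id genes and the 3 inhibitors included, 5 were called higher and 6 lower in WT 2i. Over all genes tested, 27.2% were called higher and 28.6% lower in WT 2i, which is the background for these 3 lists. The homeobox genes Msx1 (2.55) and Msx2 (-1.86) also moved apart, but at low levels. Msx1 was at 0.282 and 0.304 FPKM in WT serum and at 2.79 and 1.73 in WT 2i. Msx2 was at 0.569 and 0.938 in WT serum and at 0.177 and 0.0900 in WT 2i. Dusp9, a phosphatase gene induced by BMP in ESCs, fell by 1.39. The median over the target genes was 0.15 in WT, against -0.02 over all genes.

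The E proteins that ID proteins bind are encoded by Tcf3, Tcf4 and Tcf12. Tcf3 (E2A) was at 14.3 and 12.9 FPKM in WT serum and at 27.3 and 23.8 in WT 2i, and rose by 0.90 on the log2 scale. Tcf4 fell by 0.89 in WT 2i, and Tcf12 was not called. The same directions were called in P53-/- ESCs, at 0.90 for Tcf3 and -1.55 for Tcf4.

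Marker genes of ESCs and of other cell types also moved with culture. Of 7 markers of fibroblasts, which can serve as feeder cells, Thy1 passed the filter and lay between 7.55 and 10.5 FPKM in serum and between 0.343 and 0.972 in 2i. Col1a1 did not exceed 0.501 in any library, Col3a1 and Postn were listed at 0 in all 8, and the list summed to 7.73 to 10.5 in serum and 0.761 to 1.34 in 2i. Of the 7 ESC markers, 1 was called higher and 2 lower in WT 2i, against 27.2% and 28.6% of all genes. In P53-/- 2i, 1 was called higher and 4 lower, against 28% and 30.1% of all genes. In WT 2i, Pou5f1 was called higher (0.80 on the log2 scale) and Utf1 (-3.07) and Sox2 (-0.60) lower, the latter pair named after their values were seen. Utf1 was also called lower in P53-/- 2i (-3.21), and Dppa5a was called higher (0.71) and Zfp42 lower (-0.74) in P53-/- 2i.

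Markers of other lineages were low, apart from Tubb3, Lama1 and Tfap2c. Of 3 mesoderm markers tested of 6, T (3.02) and Kdr (0.76) were called higher in WT 2i, and the list summed to 6.01 to 6.42 FPKM in WT 2i, 2.74 to 3.75 in P53-/- 2i and 2.77 to 4.13 in serum. In the same comparison Gata4 was called higher (1.19) of 2 primitive endoderm markers tested, and that list summed to 11.5 to 15.4 in 2i and 11.0 to 19.4 in serum. Of 3 neural markers tested, Map2 was called lower in WT 2i (-2.43), with sums of 17.8 to 30.6 in 2i and 21.2 to 35.3 in serum. Tfap2c was called higher in WT 2i (0.60) of 3 trophoblast markers tested, with sums of 9.72 to 14.7 in 2i and 6.76 to 8.82 in serum. Between P53-/- 2i and P53-/- serum, Krt7 (3.58), T (2.90) and Gata4 (1.81) were called higher and Map2 (-1.73), Eomes (-0.77) and Tubb3 (-0.77) lower. With P53 loss in 2i, Krt7 (2.14) was called higher and Tubb3 (-0.61) lower. The part of these markers in the results for the 9 genes was not tested.

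Since FPKM is scaled by transcript length, the levels of the genes can also be set in order within a group. In WT serum, Id1 came first with a mean of 94.8 ± 0.787 FPKM (SD, n = 2), followed by Bmp4, Smad7, Bmpr1a, Id3 and Id2, each without overlap with the next. Id4, Bambi and Smad6 came last, with overlapping ranges. The order in P53-/- serum was the same, except that Smad7, Bmpr1a and Id3 overlapped with their neighbours. In WT 2i, Id3 came first at 154 ± 35.6 FPKM (SD, n = 2), well clear of Smad7 in second place, and Bmp4 and Smad6 came last. In P53-/- 2i, Id3 was still first at 22.5 ± 3.86 FPKM (SD, n = 2), followed by Id4 and Smad7 without overlap, and Bmp4 was last but overlapped with Smad6.

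The summed level of the 4 Id genes shows how their make-up shifted. The sum was 124 and 126 FPKM in WT serum, 111 and 119 in P53-/- serum, 201 and 156 in the WT libraries of 2i, and 53.04 and 60.0 in the P53-/- ones. Id1 made up a mean of 75.9% of the sum in WT serum and 67.5% in P53-/- serum. In WT 2i, Id3 made up 85.7%. In P53-/- 2i no Id gene exceeded 42.1% of the sum in a library, with mean shares of 39.7% for Id3, 30.0% for Id4, 15.7% for Id2 and 14.6% for Id1.

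**Figure D4:**
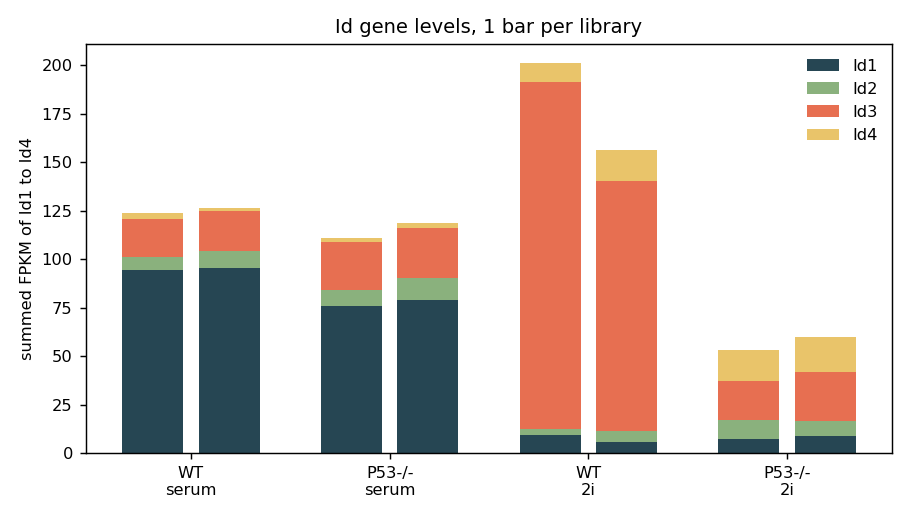
Summed FPKM of Id1 to Id4 (y axis, from 0), with 1 bar per library and colours for the genes. Id1 fills most of the serum bars and Id3 most of the WT 2i bars, while the P53-/- 2i bars are the lowest, at 53.04 and 60.0.

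Loss of P53 in 2i changed 3 of the 9 genes: Id3 and Smad7 fell and Id2 rose. As background, 10.3% of all genes were called in this comparison, 5.97% lower and 4.36% higher. Id3 fell by 2.76 on the log2 scale (SE 0.18, limma adjusted p = 0.000280), a 6.75-fold difference, and ranked 21 of 12572 genes by p value. Its WT libraries at 179 and 129 FPKM stood far above the P53-/- libraries at 19.8 and 25.3. The fall lay between -2.99 and -2.52 when any of the 4 libraries was left out, and was called each time.

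The changes of Smad7 and Id2 were smaller and less secure. Smad7 fell by 0.69 (SE 0.19, limma adjusted p = 0.0698), with WT 2i libraries at 19.6 and 23.6 FPKM and P53-/- 2i libraries at 12.1 and 14.6. Id2 rose by 1.004 (SE 0.29, limma adjusted p = 0.0794), from 3.28 and 5.65 FPKM to 9.70 and 7.89. Neither pair of groups overlapped. Both calls were lost when the fit held the compared groups only, with limma adjusted p = 0.177 for Smad7 and 0.230 for Id2, and when the trend was dropped (0.123 and 0.129). The call of Id2 was also lost with no filter (limma adjusted p = 0.115). Leaving out a library ended the call of Smad7 for the first P53-/- library (-0.55), the second P53-/- library (-0.82) and the second WT library (-0.55). It ended the call of Id2 for the first P53-/- library (0.86), the second P53-/- library (1.15) and the first WT library (0.62).

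The other 6 genes were not called between P53-/- and WT ESCs in 2i. Their log2 fold changes were 0.14 for Id1, 0.46 for Id4, 0.61 for Smad6, -0.42 for Bmp4, -0.28 for Bmpr1a and 0.05 for Bambi. The 95% interval was -0.32 to 0.59 for Id1 and -1.01 to 0.17 for Bmp4, so that changes of the size seen for Id3 lay outside both.

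In serum, none of the 9 genes was called between P53-/- and WT ESCs by limma, against 1.02% of all genes. None of the 9 had an unadjusted p under 0.05 either, whereas 1422 genes of the 12572 did. The lowest was that of Id3 (log2 fold change 0.32, SE 0.18, limma adjusted p = 0.538), whose P53-/- libraries at 24.5 and 25.9 FPKM lay slightly above the WT libraries at 19.9 and 20.4. The P53-/- libraries of Id1, at 76.1 and 78.9 FPKM, were both under the WT libraries at 94.3 and 95.4, a log2 fold change of -0.29 with a 95% interval from -0.74 to 0.16.

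The effect of P53 loss on Id3 differed between the cultures. The interaction, the effect of P53 loss in 2i less that in serum, was -3.08 on the log2 scale (SE 0.26, limma adjusted p = 0.00313), rank 11 of 12572 genes by p value. Id3 was the only one of the 9 genes called in this test, in which 0.207% of all genes were called and 0.103% were called lower. The value lay between -3.32 and -2.84 when any of the 8 libraries was left out, with a limma adjusted p of at most 0.0429. For Smad7 the interaction was -0.67 (SE 0.26, limma adjusted p = 0.344, unadjusted p = 0.0353), and for Id2 it was 0.71 (SE 0.41, limma adjusted p = 0.496), so that a difference between cultures was not shown for these genes.

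**Figure D5:**
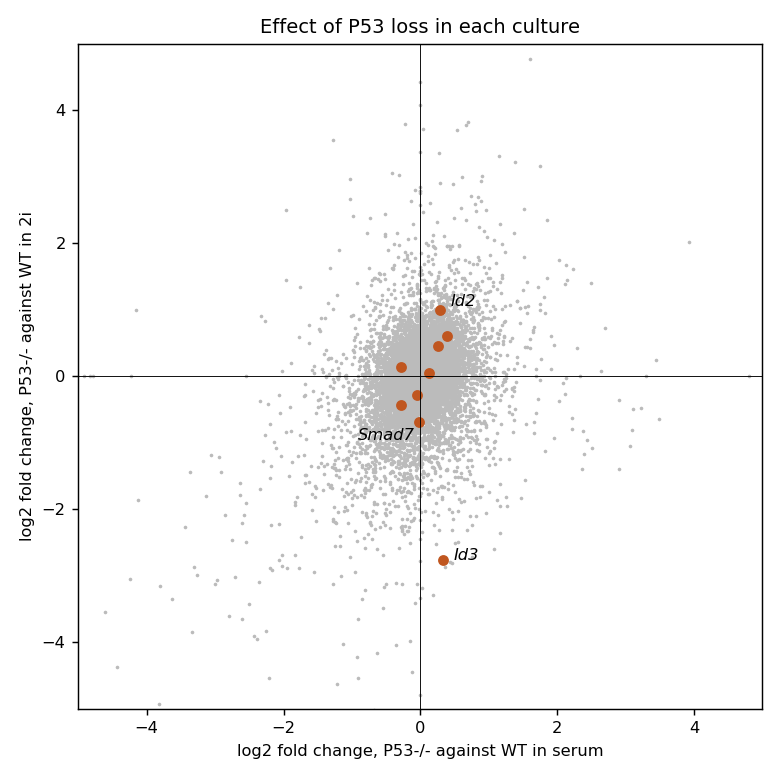
Log2 fold change of P53-/- against WT in 2i (y axis) and in serum (x axis) for the 12572 genes tested (grey points), with the 9 genes in orange and the 3 called in 2i named. The axes end at 5 on either side of 0, which leaves out 90 grey points. Id3 lies at -2.76 in 2i and 0.32 in serum, away from the other 8, which lie between -0.69 and 1.004 in 2i.

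Few genes shared the level pattern of Id3. Its lower WT 2i library was 4.96 times its highest value in any other library. By this measure, chosen after the values were seen, 17 of 12572 genes exceeded a factor of 4 and 115 exceeded a factor of 2, and Id3 was the only one of the 9 among them. Fos, an ERK output gene, stood at 4.90 times by the same measure, and Fst at 2.12 times. By the distance between centred log2 profiles over the 8 libraries, the nearest gene outside the 9 was Slc5a1, which encodes the sodium-glucose transporter SGLT1, at a distance of 0.49. It was at 2.09 and 1.63 FPKM in WT 2i and at or under 0.370 in the other libraries. The next, Necab3 and Nsg1, were farther off at 1.33 and 1.35. For Id1 the nearest profiles were those of E2f8, Gfod1 and Rgs20, at distances of 0.57 to 0.63. For Id4 they were those of Mok, Mlycd and Uckl1 at 0.54 to 0.70, and for Id2 those of Nampt and Klc2 at 0.50 and 0.54.

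The genes next to Id3 on its chromosome were looked at as well. Of the 3 genes on either side in the RefSeq order (Pithd1, Eloa, Rpl11, E2f2, Asap3 and Tcea3), Asap3 was the only one called between P53-/- and WT ESCs in 2i. It was at 1.54 and 1.86 FPKM in WT 2i against 0.649 and 0.417 without P53, and its WT serum values of 2.66 and 2.97 were higher still, unlike those of Id3.

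Some output genes of the ERK pathway also fell with P53 loss in 2i. Of 9 ERK output genes tested, 3 were called lower in P53-/- than in WT 2i and none higher, against 5.97% of all genes called lower and 4.36% higher, with Egr1 at -3.17, Fos at -2.33 and Spry2 at -1.08. Fos, a subunit gene of the AP-1 transcription factor, was at 37.0 and 39.4 FPKM in WT 2i against 7.45 and 7.55 without P53, and at or under 3.58 in serum. Between the WT cultures, 6 of these ERK output genes were called lower in 2i and 1, Fos (3.63), higher. Over all genes, 28.6% were called lower and 27.2% higher there. Egr1, a zinc finger factor gene, was at 6.84 and 1.92 in WT 2i against 0.335 and 0.298 without P53, but at 2.46 to 5.53 in serum. The 9 ERK output genes summed to 320 to 343 FPKM in serum, 146 to 154 in WT 2i and 101 to 107 in P53-/- 2i. None was at 0 in all libraries. Much of the difference between the 2i sums lies in Fos. The 6 genes not called for P53 loss in 2i went both ways. Dusp4 (0.91) and Spred1 (0.36) lay higher without P53, and Dusp6 (-0.46), Spry4 (-0.31), Etv5 (-0.15) and Etv4 (-0.06) lower. The part of these genes in the Id3 result was not tested.

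Outside the 9 genes, 36 genes of the 7 role lists were tested, of which 5 (13.9%) were called for P53 loss in 2i and 1 (2.78%) in serum, against 10.3% and 1.02% of all genes. Eng, which encodes the co-receptor endoglin, was the only one of 10 receptor genes called, and it was lower in both cultures. In 2i it was at 4.11 and 4.69 FPKM in WT and at 1.40 and 1.01 in P53-/- ESCs, a log2 fold change of -1.80 (SE 0.30, limma adjusted p = 0.0162). In serum it was at 3.09 and 2.64 in WT and at 0.299 and 0.183 in P53-/- ESCs, a log2 fold change of -3.14 (SE 0.30, limma adjusted p = 0.00477). In 2i, the antagonist gene Fst (-1.59) was called lower, as was Bmp1 (-1.47), whose protease cleaves the antagonist chordin, and the corepressor gene Skil (0.87) was called higher. Among targets outside the 9, Gata2, a haematopoietic transcription factor gene, was called higher in P53-/- 2i, at 1.11 and 0.957 FPKM against 0.277 and 0.121 (log2 fold change 1.97, SE 0.45, limma adjusted p = 0.0443). No ligand gene, no signal-carrying SMAD gene and no E protein gene was called for P53 loss in either culture by limma.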

How the data were processed

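Total RNA of G1-sorted ESCs was depleted of ribosomal RNA and sequenced as stranded libraries. The authors deposited FPKM values per gene symbol, scaled by transcript length and mapped fragments. STAR, Cufflinks, DESeq2 and the build mm9 are listed in the submitters' processing notes, without versions. Columns were grouped by the genotype and culture in their names, libraries were numbered by column order as names only, and 0 columns were left unused. P21-/- ESCs and the WT 2i libraries of that experiment were not analysed here.

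FPKM + 0.1 was taken as log2 for the 12572 genes with a mean of at least 0.5 FPKM. Limma 3.58.1 (R 4.3.3) was fitted once to the 4 groups with eBayes and trend, and Benjamini-Hochberg adjustment ran over all genes. Calls required more than a 1.5-fold change together with an adjusted p below 0.1. The fit was also run on simulated data, in which some genes were changed in WT 2i by more than the changes called for Smad7 and Id2. That run therefore does not test calls of such small changes. Tables and figures were made with matplotlib 3.10.9, pandas 2.3.3 and numpy 2.4.6 in Python 3.11.15.

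The 9 genes, the lists and the motifs were chosen with earlier results of these data known. Named from each list were at most 3 called genes per comparison with the largest change, at most 3 markers by level, and for each Id gene the 3 nearest profiles, of which 1 is not reported here. GENCODE M21 (GRCm38), in which 24425 of 24881 symbols matched, gave transcript lengths and exons, and RefSeq (GRCm38.p6) the promoter windows and gene order. Printed coordinates are of GRCm38.p6, not of the authors' mm9.

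Alternatives were pseudocounts of 1 and 0.01, no filter, a mean of at least 1 FPKM, median-ratio scaling, quantile normalization, the compared groups only, no trend, an adjusted p under 0.05, no small RNA genes and each library left out in turn.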

Additional observations from a re-analysis of the deposited data

Results flagged for a closer look

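For Id3, the effect of P53 loss differed between the cultures by limma's interaction test: it was -2.76 in 2i and 0.32 in serum on the log2 scale, a difference of -3.08 (SE 0.26, limma adjusted p = 0.00313). Both P53-/- libraries lay below both WT libraries in 2i, and both lay above in serum. The cause was not tested.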

How the results depend on the processing

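Direction and call were kept in 428 of 441 values of the 9 genes under the settings other than leaving out a library; 13 lost the call and 0 changed direction. All 13 are Smad6 and Smad7 between WT cultures and Id2 and Smad7 for P53 loss in 2i. The count of genes called for P53 loss in 2i was 3, and fell to 2 with no filter and to 1 with the compared groups only, without trend and at an adjusted p under 0.05, and lay between 1 and 2 with a library left out. Id3 stayed called in each. Where 1 library was left out, the arm of 1 library was assumed to vary like the others, and of 216 values 16 lost the call and 26, none of them called before, changed direction. The 16 are Smad6 in both genotypes and Id2 and Smad7 in WT between cultures, and Id2 and Smad7 for P53 loss in 2i. The count called between the WT cultures, 9, then lay between 6 and 9. For P53-/- 2i against serum, Id3 lay between -0.35 and 0.0024 and Id2 between -0.37 and 0.10. For P53 loss in 2i, Bambi lay between -0.12 and 0.23 and Id1 between -0.17 and 0.44. For P53 loss in serum, Smad6 lay between -0.40 and 1.18, Smad7 between -0.25 and 0.22, Bmpr1a between -0.35 and 0.26, Bambi between -0.15 and 0.39 and Id4 between -0.13 and 0.63. For the interaction, Bmp4 lay between -0.53 and 0.24, Bambi between -0.34 and 0.20, Id4 between -0.18 and 0.59, Smad6 between -0.57 and 1.001 and Bmpr1a between -0.54 and 0.068. The cause was not tested. Depth limits Smad6 most, at about 14 fragments in a library. No paired analysis was possible because the columns carry no replicate numbers.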
